A study of Mus musculus with 6 samples.

Results

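The Gadd45 genes and a set of p53 pathway genes were examined in cultured mouse myoblasts. The members were Gadd45a, Gadd45b, Gadd45g, Trp53, Mdm2, Ccng1, Btg2, Sesn1, Bbc3 and Trp53inp1, taken with every probe set of the array that the platform annotation assigned to that gene alone. This gave 20 of the 34945 probe sets with 1 gene, for 9 of the 10 genes; Trp53 itself was not analysed here. Of the 20, 18 lay above the filter on dim probe sets and were tested, and 2 (1 of Mdm2 and 1 of Sesn1) lay below it. The group was selected on the measured difference of Gadd45a between the conditions in earlier results of the same arrays, in which Gadd45g also stood out. The members' differences are therefore given as a description, with standard errors and 95% intervals but no p-values.

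The cells were C2C12, an established mouse line of skeletal muscle precursors, carrying an integrin alpha7 construct that tetracycline switches on. Undifferentiated cells grew for 36 h in 20% serum, with 1 µg/ml tetracycline (induced, 3 arrays) or without it (noninduced, 3 arrays). The construct was present in both conditions, so the comparison is of tetracycline added against not added, and no tetracycline-treated cells without the construct were analysed here. The series describes the samples of a condition as biological triplicates, and 3 arrays a group limit the precision.

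GADD45 proteins are small acidic proteins without enzymatic activity that bind other proteins, among them PCNA, the CDK1 and cyclin B1 kinase and the stress kinase kinase kinase MAP3K4. Their genes respond to growth arrest and DNA damage, and Gadd45a was among the first known targets of p53, through a site in an intron. Gadd45a is also switched on without p53: in mouse skeletal muscle it is a target of the stress factor ATF4 during atrophy. p53 is kept low by MDM2, and its targets include genes of arrest (Ccng1, Btg2, Sesn1) and of cell death (Bbc3, Trp53inp1), so that several targets moving together is the usual mark of p53 activation.

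Promoters of 9 of the 10 genes, all but Trp53inp1, were available from RefSeq (build GRCm38.p6), in 12 windows of 250 bases before and 50 after a start site. Those of the 3 Gadd45 genes are shown because their transcripts differed in direction, and that of Ccng1 because it is a p53 target with a bright signal. Capitals mark matches, on either strand, to the p53 decamer, the octamer ATTTGCAT, the CCAAT box (CCAAT), the GC box (GGGCGG), the EGR1 site (GCGGGGGCG) and the C/EBP-ATF composite element (TGATGNAA).
Gadd45a promoter, chr6:67037358-67037657, minus strand: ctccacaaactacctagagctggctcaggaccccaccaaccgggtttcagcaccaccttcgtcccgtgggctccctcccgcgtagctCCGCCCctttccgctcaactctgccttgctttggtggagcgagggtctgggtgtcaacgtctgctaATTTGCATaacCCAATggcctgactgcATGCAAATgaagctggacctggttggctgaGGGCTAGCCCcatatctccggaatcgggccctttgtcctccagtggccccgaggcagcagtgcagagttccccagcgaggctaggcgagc
Gadd45b promoter, chr10:80929841-80930140, plus strand: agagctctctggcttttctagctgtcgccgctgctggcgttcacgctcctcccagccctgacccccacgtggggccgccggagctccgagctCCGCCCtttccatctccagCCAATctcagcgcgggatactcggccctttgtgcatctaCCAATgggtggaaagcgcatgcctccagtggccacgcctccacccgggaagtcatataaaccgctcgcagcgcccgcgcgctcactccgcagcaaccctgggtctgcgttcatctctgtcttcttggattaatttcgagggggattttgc
Gadd45g promoter, chr13:51846425-51846724, plus strand: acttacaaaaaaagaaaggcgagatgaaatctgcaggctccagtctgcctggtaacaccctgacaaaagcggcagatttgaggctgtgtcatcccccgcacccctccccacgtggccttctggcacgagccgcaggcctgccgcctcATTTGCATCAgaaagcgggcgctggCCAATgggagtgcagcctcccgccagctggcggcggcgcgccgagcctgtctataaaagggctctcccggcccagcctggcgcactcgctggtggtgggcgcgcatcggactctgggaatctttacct
Ccng1 promoter, chr11:40755237-40755536, minus strand: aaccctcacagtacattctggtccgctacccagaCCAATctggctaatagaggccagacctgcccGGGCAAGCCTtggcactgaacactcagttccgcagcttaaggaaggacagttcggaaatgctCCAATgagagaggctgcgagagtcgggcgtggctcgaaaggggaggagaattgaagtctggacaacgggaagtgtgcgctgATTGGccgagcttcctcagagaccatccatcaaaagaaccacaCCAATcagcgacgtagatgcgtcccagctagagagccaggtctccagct

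The Gadd45a window held 1 p53 decamer, GGGCTAGCCC, at -40 to -31 from the start site, octamers at -97 to -90 and, on the other strand, at -70 to -63, a CCAAT box at -86 to -82 between them, and 1 GC box. Octamer and CCAAT motifs of the human promoter are known to carry induction that does not need p53. The Gadd45b window held 2 CCAAT boxes and 1 GC box and no octamer. The Gadd45g window held 1 octamer and 1 CCAAT box, and its C/EBP-ATF composite match at -101 to -94 overlapped the octamer. The Ccng1 window held a p53 decamer, GGGCAAGCCT, at -185 to -176 and 4 CCAAT boxes.

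Over all 32851 promoters of this length, the p53 decamer was present in 8.36%, the octamer in 1.74%, the CCAAT box in 37.4%, the GC box in 35.7%, the EGR1 site in 2.91% and the C/EBP-ATF composite element in 3.97%. Of the members' 12 windows, 5 held a p53 decamer, 2 an octamer, 10 a CCAAT box, 9 a GC box, 2 the EGR1 site and 1 the composite element. The windows with a decamer include that of Trp53, whose transcript was not analysed. Sesn1 and Bbc3 had several windows each. Those of Bbc3 at chr7:16310011-16310310 and chr7:16310181-16310480 overlapped, so the windows are not independent and the counts were not tested. Every p53 decamer match read on one strand also matched on the other, since the motif is palindromic. A match describes the letters only and shows no binding.

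Itga7, the gene the construct carries, showed no rise with tetracycline. Probe set 1418393_a_at gave 675, 727 and 676 on the arrays labelled induced, against 811, 778 and 786 on the noninduced arrays. The groups did not overlap, and the arrays labelled induced were all lower. The log2 difference was -0.19 (SE 0.058, limma adjusted p = 0.178; exact two-sided permutation p = 0.1, the smallest that 3 against 3 allow). The labels do not say which part of the transcript the construct carries, so its transcript may escape detection here. Why Itga7 was not higher was not tested. For that reason the text speaks of arrays labelled induced, and each direction depends on the labels.

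A few facts of the arrays touch every result. Fluidics runs were inferred from gaps in the recorded hybridisation times. The 3 noninduced arrays and induced array 1 fell in 1 such run and induced arrays 2 and 3 in another. All noninduced arrays were scanned first, so scan order and condition cannot be told apart. The 3′ to 5′ signal ratio was 0.761 to 0.782 on the arrays labelled induced and 0.788 to 0.802 on the noninduced arrays for Gapdh, and 1.12 to 1.14 and at most 1.11 for Actb; the part of these differences in the results was not tested. Of 9 myoblast markers with a probe set 8 lay above the filter, with summed signals of 8035 to 8458 on the arrays labelled induced and 8296 to 8365 on the noninduced arrays. Only 1 of 10 fibroblast, 1 of 8 endothelial, 3 of 7 leukocyte, 4 of 8 epithelial and 4 of 11 myotube markers did so. Their summed signals were at most 405 on any array labelled induced and 432 on any noninduced array, and no marker was listed at 0. The fibroblast marker above the filter, the PDGF receptor gene Pdgfra (1421917_at), gave 65.4 to 101 on the arrays labelled induced, against 37.3 to 60.6 on the noninduced arrays. These groups did not overlap, in the direction of Gadd45a, with a log2 difference of 0.56 (limma adjusted p = 0.194), while another Pdgfra probe set, 1421916_at, gave -0.15. Of the fibroblast markers below the filter, Dcn (-0.49), Lum (-0.63), Dpt (-0.33), Postn (-0.31), Pi16 (-0.27) and Col15a1 (-0.11) were negative. Thy1 (0.12), Tcf21 (0.05) and Fap (0.17) were positive. The fibroblast sums overlapped, at 134 to 185 on the arrays labelled induced and 151 to 169 on the noninduced arrays. The leukocyte sum was 123 to 152 on the arrays labelled induced and 158 to 171 on the noninduced arrays, and the endothelial sum 69.5 to 79.8 and 89.4 to 112; the part of these signals in the results was not tested.

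Gadd45a was the member that differed most. Its single probe set, 1449519_at, gave 138, 121 and 165 on the arrays labelled induced, against 86.6, 53.1 and 71.6 on the noninduced arrays. The lowest array labelled induced lay well above the highest noninduced array, and the groups did not overlap. The means were 141 ± 21.9 on the arrays labelled induced and 70.4 ± 16.8 on the noninduced arrays (SD, n = 3 each). On the log2(signal + 16) scale used for all differences here the difference was 0.87 (SE 0.158, 95% interval 0.53 to 1.22), or 1.83-fold. This was the difference of rank 7 from the top among 22518 tested probe sets, of which 98.9% lay within 1.5-fold. The members were selected on this difference of Gadd45a, so nothing is read from its size or rank. In RNA from a whole culture, more cells that express a gene and more transcript per cell cannot be told apart. Within the first fluidics run, which holds induced array 1 and all noninduced arrays, it was 0.85.

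Gadd45b and Gadd45g did not share the direction of Gadd45a. Gadd45g, a family member induced by cytokines, had 1 probe set, 1453851_a_at, with 728, 851 and 770 on the arrays labelled induced, against 893, 920 and 998 on the noninduced arrays. The groups did not overlap, and the arrays labelled induced were all lower. The log2 difference was -0.26 (SE 0.070, 95% interval -0.41 to -0.10). Within the first fluidics run it was -0.36, and median centring of the arrays gave -0.16.

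Gadd45b, a family member induced by TGF-beta and NF-kB signalling, had 3 probe sets that gave different pictures. The brightest, 1450971_at, read 249.5, 284 and 289 on the arrays labelled induced, against 323, 372 and 296 on the noninduced arrays. The groups did not overlap, but induced array 3 and noninduced array 3 were close. The log2 difference was -0.25 (SE 0.095, 95% interval -0.46 to -0.05), and -0.38 within the first fluidics run.

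A second Gadd45b probe set, 1420197_at, was dim. It gave 15.999, 42.5 and 31.4 on the arrays labelled induced, against 58.1, 58.9 and 40.9 on the noninduced arrays, a log2 difference of -0.61 (95% interval -1.11 to -0.11). It was -1.09 within the first fluidics run and -0.37 without induced array 1. The groups overlapped, since induced array 2 exceeded noninduced array 3. The third, 1449773_s_at, whose suffix marks probes that may match more than 1 transcript, gave 187, 212 and 180 on the arrays labelled induced, against 178, 228 and 188 on the noninduced arrays. Its groups overlapped fully, with a log2 difference of -0.04 (95% interval -0.27 to 0.20; 0.06 after median centring).

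**Figure D1:**
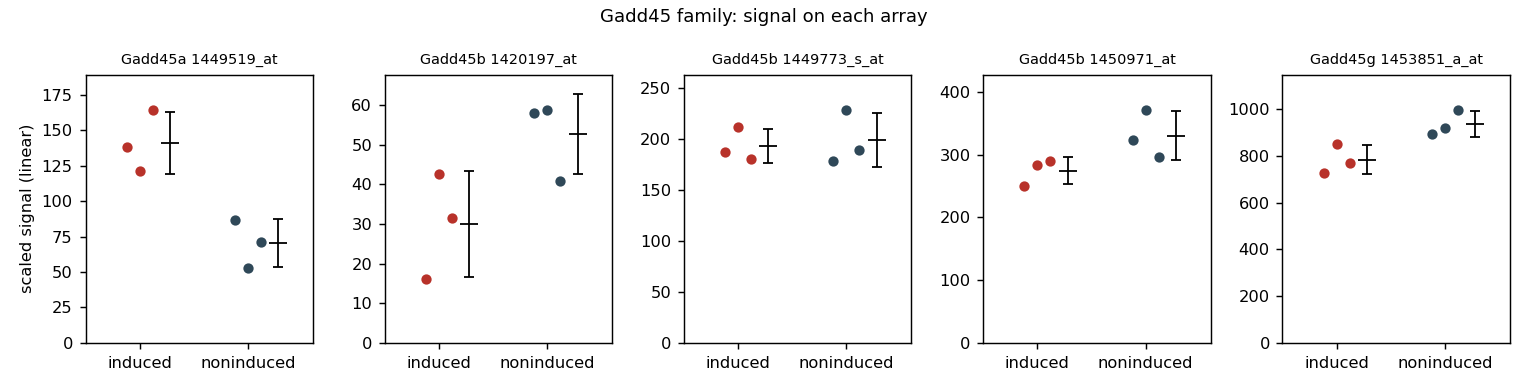
Scaled linear signal of each Gadd45 family probe set on each array (points), with the mean and SD of 3 arrays (bar and whiskers); each panel has its own vertical axis from 0. Gadd45a is the single panel in which the arrays labelled induced, at 121 to 165, lie above the noninduced arrays, at 53.1 to 86.6.

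Mdm2, the ubiquitin ligase that degrades p53 and is itself a p53 target, showed no separation of the groups. Probe set 1427718_a_at gave 644, 669 and 727 on the arrays labelled induced, against 558, 699 and 704 on the noninduced arrays. Only noninduced array 1 stood lower, and the log2 difference was 0.06 (95% interval -0.13 to 0.25). Probe set 1423605_a_at gave 656, 560 and 679 on the arrays labelled induced, against 555, 616 and 711 on the noninduced arrays. The groups lay over each other, with a difference of 0.01 (95% interval -0.19 to 0.22). The third Mdm2 probe set, 1457929_at, was below the filter at 13.2 to 16.5 on the arrays labelled induced and 2.61 to 27.7 on the noninduced arrays.

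Ccng1 encodes cyclin G1, an early p53 target that acts on MDM2 through a phosphatase, and its 3 probe sets were bright and precise. Probe set 1420827_a_at gave 2855, 3113 and 3146 on the arrays labelled induced, against 3240, 2946 and 3113 on the noninduced arrays. The groups overlapped, and the log2 difference was -0.03 (SE 0.053, 95% interval -0.14 to 0.09; 0.06 after median centring). Probe set 1450016_at gave 1530, 1564 and 1793 on the arrays labelled induced, against 1404, 1640 and 1634 on the noninduced arrays, also overlapping, with 0.06 (95% interval -0.10 to 0.22). Probe set 1450017_at gave 1309, 1333 and 1374 on the arrays labelled induced, against 1138, 1280 and 1307 on the noninduced arrays. These groups did not overlap, although induced array 1 and noninduced array 3 were almost level, and the difference was 0.11 (95% interval -0.02 to 0.24).

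Btg2, an antiproliferative protein that recruits the CCR4-NOT deadenylase, had 2 probe sets, both with a negative difference. Probe set 1448272_at gave 71.4, 90.2 and 81.3 on the arrays labelled induced, against 115, 145 and 79.3 on the noninduced arrays. Noninduced array 3 lay among the arrays labelled induced, so the groups overlapped, and the log2 difference was -0.38 (95% interval -0.76 to -0.01). The brighter 1416250_at gave 217, 189 and 242 on the arrays labelled induced, against 278, 275 and 187 on the noninduced arrays. Here too noninduced array 3 was low, at the level of induced array 2, and the difference was -0.16 (95% interval -0.47 to 0.14). With 1 array left out at a time, the difference of 1448272_at ran from -0.59 (without noninduced array 3) to -0.21 (without noninduced array 2), and that of 1416250_at from -0.34 (without noninduced array 3) to -0.07 (without noninduced array 1).

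Sesn1, a sestrin that restrains the growth kinase complex mTORC1, had 4 probe sets with differing signs. Probe set 1433711_s_at gave 145, 129 and 175 on the arrays labelled induced, against 193, 159 and 144 on the noninduced arrays, a log2 difference of -0.13 (95% interval -0.41 to 0.15). Probe set 1438931_s_at gave 129, 146 and 123 on the arrays labelled induced, against 135, 105 and 86.2 on the noninduced arrays, a difference of 0.27 (95% interval -0.04 to 0.58), or 0.13 without noninduced array 3 and 0.415 without noninduced array 1. The groups overlapped for both. Probe set 1454699_at was at 0.04 (95% interval -0.29 to 0.36), with 58.9 to 86.8 on the arrays labelled induced and 65.2 to 79.0 on the noninduced arrays. The fourth, 1444376_at, was below the filter, with 8.82 to 18.1 and 0.976 to 16.5.

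Bbc3 encodes PUMA, a BH3-only protein that starts apoptosis. Its probe set, 1423315_at, gave 96.2, 64.1 and 86.1 on the arrays labelled induced, against 85.9, 75.1 and 75.2 on the noninduced arrays. The arrays labelled induced held both the highest and the lowest value, and the log2 difference was 0.04 (SE 0.146, 95% interval -0.28 to 0.36).

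Trp53inp1, a stress protein that acts with HIPK2 on p53 and in autophagy, had 2 probe sets, both with a positive difference. Probe set 1416926_at gave 317, 277 and 290 on the arrays labelled induced, against 247, 234 and 252 on the noninduced arrays. The groups did not overlap, and the log2 difference was 0.25 (SE 0.081, 95% interval 0.08 to 0.43), 1.19-fold; it was 0.36 within the first fluidics run. The dimmer 1416927_at gave 44.0, 45.6 and 75.3 on the arrays labelled induced, against 40.0, 62.1 and 33.3 on the noninduced arrays. Its groups overlapped, with a difference of 0.21 (95% interval -0.25 to 0.68). It was at -0.0003 within the first fluidics run, and leaving out 1 array at a time gave 0.02 (without induced array 3) to 0.41 (without noninduced array 2).

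**Figure D2:**
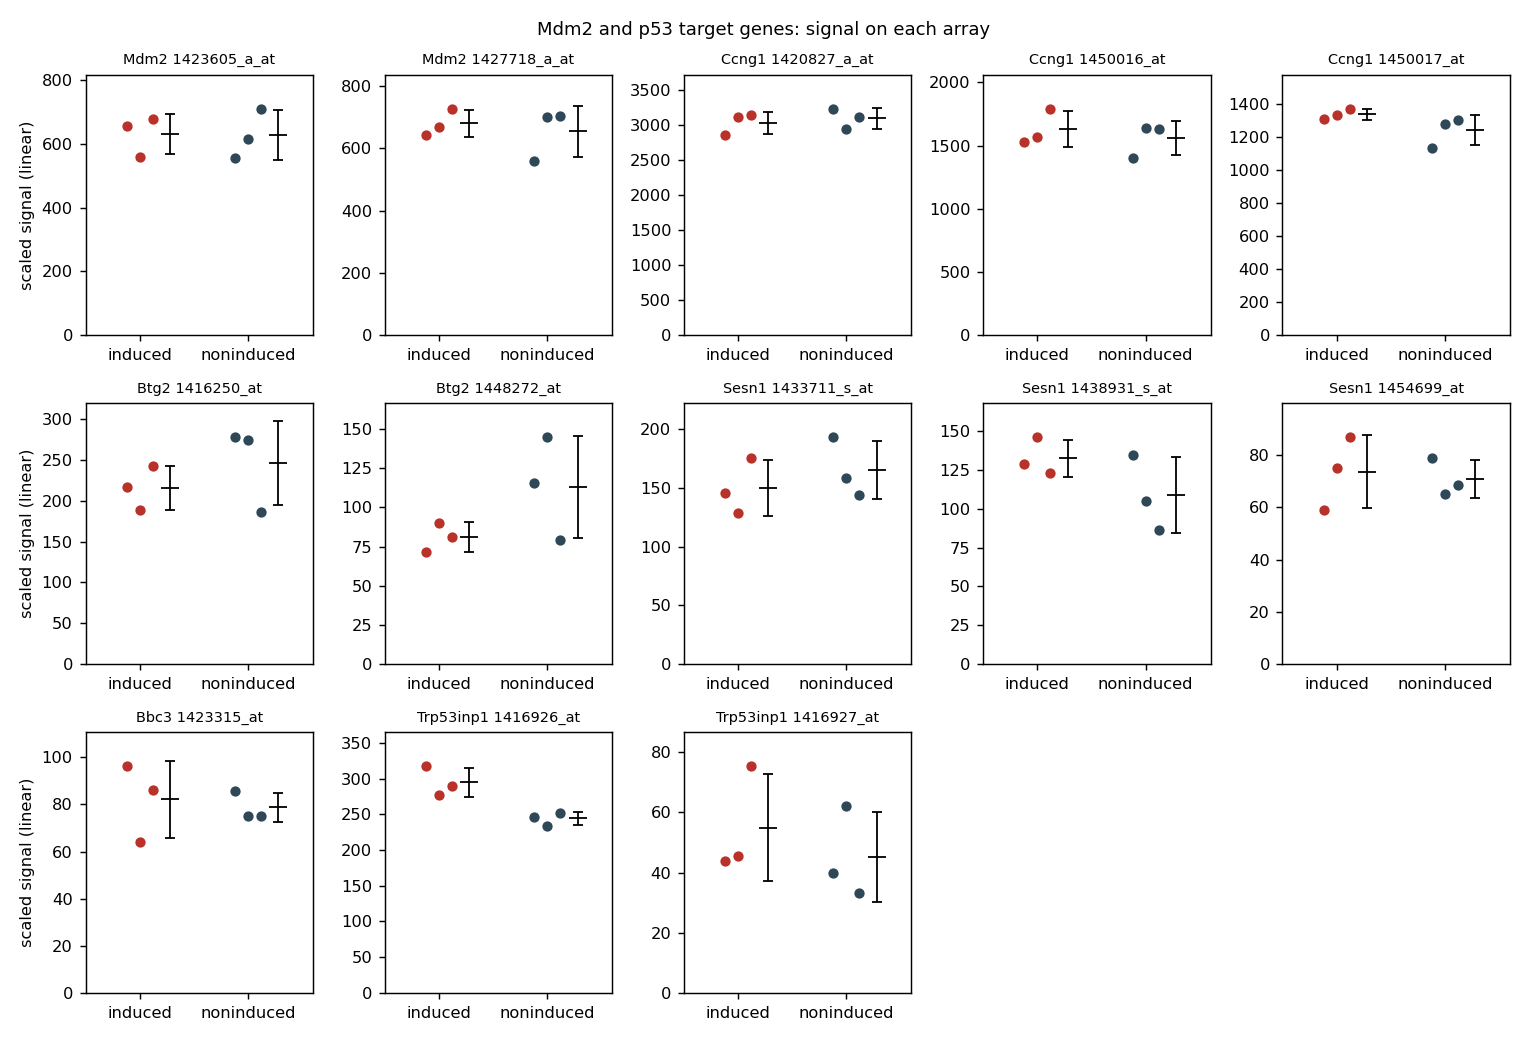
Scaled linear signal of the tested Mdm2, Ccng1, Btg2, Sesn1, Bbc3 and Trp53inp1 probe sets on each array (points), with the mean and SD of 3 arrays (bar and whiskers); each panel has its own vertical axis from 0. The groups overlap in every panel except Ccng1 1450017_at, where they nearly touch, and Trp53inp1 1416926_at, where the arrays labelled induced lie at 277 to 317 and the noninduced arrays at 234 to 252.

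Of all 20 probe sets of the members 12 had a positive difference, and the median of the 18 tested was 0.02, against -0.01 over all tested probe sets.

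No member probe set passed an adjusted p of 0.05 in limma over all 22518 tested, of which 0.200% did (27 higher and 18 lower). The unadjusted 95% interval excluded 0 for Gadd45a and 5 others (Gadd45b 1420197_at and 1450971_at, Gadd45g, Btg2 1448272_at and Trp53inp1 1416926_at), and 14.7% of all tested probe sets had an unadjusted p under 0.05. Centring each array on its median gave 294 higher and 12 lower, with the median of all probe sets at 0.08. The groups did not overlap for 3 of the 18 tested member probe sets in the upward direction and 2 in the downward direction, against 9.64% and 10.6% of all tested probe sets. The members were chosen with this contrast known, so nothing is read from these shares.

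**Figure D3:**
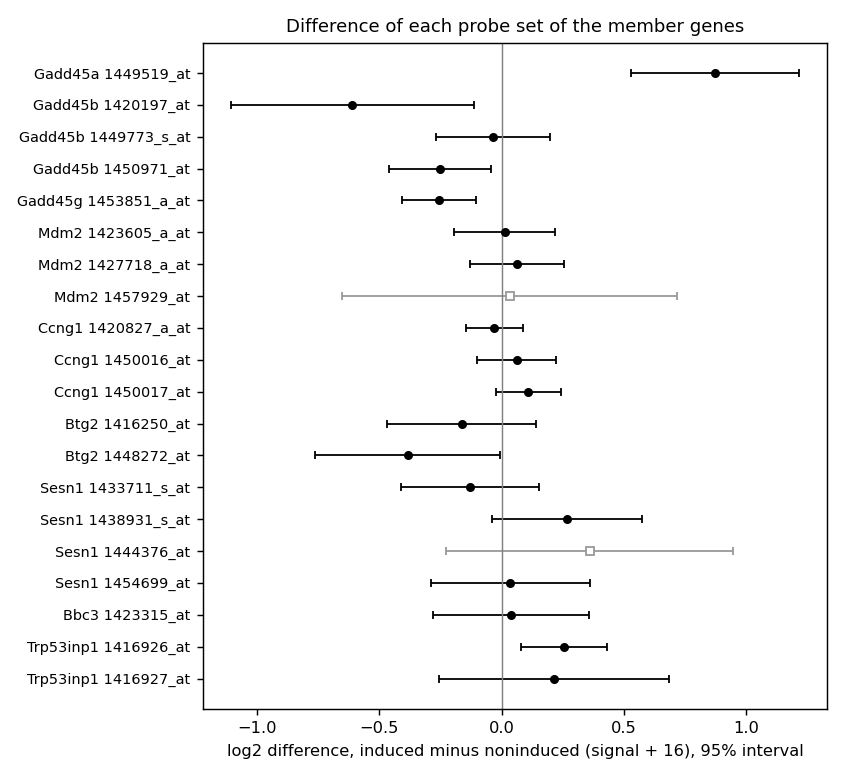
Log2 difference of each of the 20 member probe sets, arrays labelled induced minus noninduced arrays, on the log2(signal + 16) scale, with 95% intervals; filled circles were tested and open squares lay below the filter. Gadd45a, at 0.87, stands to the right of all others, and the 3 Gadd45b and 1 Gadd45g probe sets lie left of 0.

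Across the 6 arrays the members differed in how closely their log2 signals ran with that of Gadd45a; the arrays of a condition share it, so these correlations largely restate the group difference. Pearson's r was 0.89 for Trp53inp1 1416926_at but 0.29 for Trp53inp1 1416927_at. For Sesn1 it was 0.60 with 1438931_s_at, 0.35 with 1454699_at and -0.05 with 1433711_s_at. Bbc3 was at 0.35, and Btg2 at -0.72 (1448272_at) and -0.26 (1416250_at). The r was -0.84 for Gadd45g, and for Gadd45b -0.79 with 1450971_at, -0.71 with 1420197_at and -0.53 with 1449773_s_at. It lay between 0.04 and 0.45 for the 3 Ccng1 probe sets and at 0.06 and 0.10 for the 2 tested Mdm2 probe sets. Among 19824 tested probe sets of other genes, 389 had an r over 0.9. The 6 genes most like Gadd45a were Aldh2, a mitochondrial aldehyde dehydrogenase (r = 0.99), Smim14, Arid5b, Rabgap1, Acot2, a mitochondrial acyl-CoA thioesterase, and Aasdhppt (r = 0.99 for each). Acot2 gave 118, 117 and 146 on the arrays labelled induced, against 83.0, 59.7 and 66.2 on the noninduced arrays, a log2 difference of 0.74, and Aldh2 was at 0.23; these genes were picked for their likeness to Gadd45a, so the differences are a description.

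Other p53 targets, named in 3 lists that share no gene with the members, gave no call. Each gene stood by its brightest probe set. Over all 10757 genes tested, 0.307% passed in limma, 15.9% had an unadjusted p under 0.05 and 47.8% were positive. Their median difference was -0.01, and median centring put the median of all tested probe sets at 0.08. Of 18 tested targets of growth arrest 0 passed (6 at an unadjusted p under 0.05), 7 were positive, and the median was -0.04 (0.05 after median centring). Cdkn1a, the cyclin-dependent kinase inhibitor p21 and the best known arrest target, gave 1153, 1125 and 1092 on the arrays labelled induced, against 1178, 1134 and 1249 on the noninduced arrays. The groups overlapped, with a log2 difference of -0.08 (SE 0.055, 95% interval -0.20 to 0.04, limma adjusted p = 0.544; 0.02 after median centring). Another Cdkn1a probe set gave -0.16. Btg1, the paralogue of Btg2, was at 0.08, with 0.27 and -0.05 for its other tested probe sets. The largest differences were those of Tgfa (-0.45), a ligand of the EGF receptor, Ptprv (-0.37), a receptor phosphatase, and Zfp365 (0.33, adjusted p = 0.116; 0.17 with its other probe set). Tgfa was dim, with means of 26.6 on the arrays labelled induced and 42.0 on the noninduced arrays, and its groups overlapped (limma adjusted p = 0.411). Its difference was -0.11 within the first fluidics run, and the Tgfa probe set 1421943_at, below the filter, gave 0.60.

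Of 20 tested p53 targets of cell death and survival 0 passed (4 at an unadjusted p under 0.05), 6 were positive, and the median was -0.04 (0.05 after median centring). Fas, a death receptor, was dim, with 34.5, 24.2 and 33.9 on the arrays labelled induced, against 22.8, 3.11 and 28.2 on the noninduced arrays. The groups overlapped, noninduced array 2 lay far below the rest, and the log2 difference was 0.54 (limma adjusted p = 0.423). Ddit4, the mTORC1 inhibitor REDD1, which p53 and other stress factors induce, gave 1144, 1059 and 1262 on the arrays labelled induced, against 976, 957 and 874 on the noninduced arrays. Its groups did not overlap, with 0.30 (adjusted p = 0.105), and it was called after median centring. Trp53i11 was at -0.35, and Siva1 at -0.14 with its brightest probe set and -0.01 to 0.17 with its other 3.

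Of 18 tested p53 targets of DNA repair, nucleotide supply and redox metabolism 0 passed (2 at an unadjusted p under 0.05), 11 were positive, and the median was 0.03. This median ran from -0.004 to 0.13 over the alternative settings listed below. The largest differences were those of Sco2 (0.22), an assembly factor of cytochrome c oxidase, Ephx1 (0.21), an epoxide hydrolase, and Fancc (-0.20), a Fanconi anaemia protein; another Fancc probe set, 1447632_at, gave -0.78 (limma adjusted p = 0.138). Gpx1, a bright glutathione peroxidase, was at 0.07.

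The proteins that act on p53 gave no call either. Of 21 tested, 5 had an unadjusted p under 0.05, 14 were positive and the median was 0.06. This median ran from 0.03 to 0.16 over the alternative settings listed below. Topors, a ubiquitin and SUMO ligase for p53, gave 435, 433 and 397 on the arrays labelled induced, against 339, 329 and 317 on the noninduced arrays. The groups did not overlap, with a log2 difference of 0.34 (limma adjusted p = 0.0732), but its other probe sets gave 0.05 and -0.01. Hipk2, a kinase that phosphorylates p53, was at 0.32 (adjusted p = 0.110), with -0.07 to 0.29 for its other 5 tested probe sets, and Ppp1r13b, a p53 cofactor, at -0.34. Trp53bp1 and the ubiquitin ligase gene Cop1, the brightest of the list, were at 0.07 and -0.02, and the other tested probe sets of Trp53bp1 lay between -0.23 and 0.08.

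Of 16 tested partners of GADD45 proteins 0 passed (4 at an unadjusted p under 0.05), 5 were positive, and the median was -0.07 (0.03 after median centring), with a range from -0.23 to 0.28. Map3k4, the kinase that GADD45 proteins activate, gave 361, 287 and 337 on the arrays labelled induced, against 279, 232 and 295 on the noninduced arrays. The groups overlapped, with 0.28 (limma adjusted p = 0.257), and its other probe sets lay between -0.16 and 0.15. Map2k3, a p38 kinase kinase, was at -0.22 (-0.15 with its other probe set), the DNA clamp Pcna at -0.12 and the mitotic kinase Cdk1 at -0.11. Tet1 was dim, with means of 39.5 on the arrays labelled induced and 48.2 on the noninduced arrays. Its groups overlapped, with a log2 difference of -0.23 (limma adjusted p = 0.614). Another tested Tet1 probe set, 1455425_at, gave 0.09.

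Among transcription factors and RNA-binding proteins known to act on Gadd45 genes, 1 of 21 tested passed, against 0.307% of all genes tested. Of the 21, 4 had an unadjusted limma p under 0.05, against 15.9% of all genes. Positive differences were found for 14, against 47.8% of all genes. Ddit3, the stress factor CHOP, gave 387, 360 and 398 on the arrays labelled induced, against 233, 268 and 256 on the noninduced arrays. It rose by 0.57 on the log2 scale (SE 0.080, limma adjusted p = 0.0147), with no overlap of the groups. The lists were chosen with earlier results of these data known, so the call is not independent of them. Within the first fluidics run the difference was 0.59, but the call was lost there, where 1 array labelled induced remains, and with fluidics run or replicate number as a block. It was also lost without noninduced array 2 or 3 and without induced array 1 or 2, and its second probe set gave 0.46 and did not pass. Egr1, a growth-induced factor, gave 397, 392 and 520 on the arrays labelled induced, against 666, 620 and 628 on the noninduced arrays, a difference of -0.54 (adjusted p = 0.0515). Atf4 was at 0.09, with 0.25 (95% interval 0.02 to 0.47, limma adjusted p = 0.304) for its second tested probe set, 1438992_x_at. Another Atf4 probe set, 1439258_at, lay below the filter and gave -0.46. Its signals were 3.25 to 4.68 on the arrays labelled induced and 5.04 to 18.9 on the noninduced arrays. Foxo1 was at 0.30 with 1 probe set and -0.03 to -0.08 with the rest, and Hnrnpd, an RNA-binding protein that destabilises Gadd45a mRNA, at 0.10 (0.20 with its other tested probe set). The list median was 0.05, and it ran from 0.02 to 0.15 over the alternative settings listed below.

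**Figure D4:**
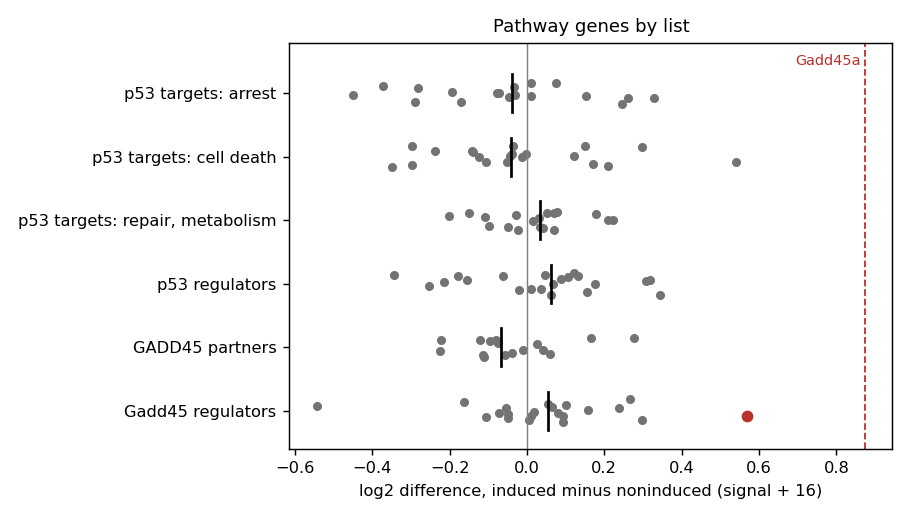
Log2 difference of each tested gene of the 6 pathway lists, arrays labelled induced minus noninduced arrays, by the brightest probe set (points), with the list median (black bar); the dashed line marks Gadd45a at 0.87 and the red point is Ddit3, the single gene past the adjusted threshold. List medians run from -0.07 to 0.06, and no listed gene reaches Gadd45a.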

How the data were processed

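Total RNA of the 6 samples was labelled with biotin, per the labels' protocols, and hybridised to 1 Affymetrix Mouse 430 2.0 array each, per the file headers. The authors deposited 1 linear signal intensity for each probe set and array, from GCOS 1.1.1 according to the submitters' processing notes; for detection calls and signal settings nothing is given in the sources used. A mean trimmed by 2% per end came to 150.0 on all arrays, so values are relative to the whole array. The deposited instrument records (unit other) gave hybridisation and scan times. Scan order was read from the scan times. Fluidics runs were inferred: a gap of more than 60 minutes between hybridisation times was taken to start a new run.

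After 64 control probe sets were set aside, 45037 remained. Values were taken to log2(value + 16), which understates changes of dim probe sets, and the 22518 probe sets whose mean exceeded the overall median (a signal of about 22.6) were tested with limma 3.58.1 in R 4.3.3 (variance trend, Benjamini-Hochberg adjustment over all tested, threshold 0.05). Genes of the lists stood by their brightest probe set. Named genes are the members, Itga7, the 6 genes most correlated with Gadd45a, and of each list those past the threshold, the 3 with the largest difference and the 2 with the highest signal. The members, lists and tests were chosen with earlier results of these data known. The fit was tested on simulated data. Same-numbered arrays did not deviate together (r = 0.01, -0.06 and -0.01), so replicate numbers were not used as pairs.

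The alternatives tried were median centring and quantile normalization; pseudocounts of 1 and 64; no filter, and a filter at the 75th percentile; array weights, robust moderation and a fit with no variance trend; blocks for replicate number and for fluidics run; the first run by itself; a threshold of 0.10; averaging all probe sets of a gene; and each array left out in turn.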

Additional observations from a re-analysis of the deposited data

How the results depend on the processing

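The number of probe sets past the adjusted threshold, 45, moved most: it was 306 after median centring, 239 at a threshold of 0.10, 103 with the filter at the 75th percentile, 88 with array weights, 76 with robust moderation, 73 with a pseudocount of 64, 7 with the replicate block and 1 with no filter. It was 0 without a variance trend (2818 at an unadjusted p under 0.05), with fluidics run as block (1918) and in the first run alone (1978), the last 2 resting on 1 array labelled induced, and 1 to 58 with 1 array left out. The count of member probe sets, 0, became 1 (Gadd45a, whose difference chose the members, so nothing is read from it) after median centring, with a pseudocount of 64, robust moderation, array weights or a threshold of 0.10; with 1 array left out it was 0 to 1, the call appearing without noninduced replicate 1. The count for regulators of Gadd45 genes, 1, became 2 (Ddit3 and Egr1) with quantile normalization, the filter at the 75th percentile, a pseudocount of 64, robust moderation, array weights, a threshold of 0.10 or probe sets averaged by gene. It became 0 with no filter, no variance trend, the replicate block, fluidics run as block and the first run alone, and was 0 to 2 with 1 array left out. Median centring gave 1 call in the arrest list (Zfp365), 1 in the death list (Ddit4) and 3 among p53 regulators (Hipk2, Ep300 and Topors); the regulators gave 1 at the 75th percentile and 2 at a threshold of 0.10. Median centring by its arithmetic shifts every difference by the same amount. That of Gadd45a went from 0.87 to 0.97, and the median of all tested probe sets from -0.01 to 0.08. The cause of the other changes was not tested. The difference of Gadd45a was 0.61 with a pseudocount of 64 and 0.72 to 1.01 with 1 array left out, and 0.87 with the replicate block. Itga7 was at -0.10 after median centring and -0.22 to -0.17 with 1 array left out. The differences changed sign for Mdm2 (both tested probe sets), Ccng1 1420827_a_at and 1450016_at, Sesn1 1454699_at, Bbc3, Gadd45b 1449773_s_at and Trp53inp1 1416927_at under 1 to 4 alternatives each. The number of arrays and dim signals, as for Fas and Gadd45b 1420197_at, limit these values.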
